A study of Mus musculus with 15 samples.

Results

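Transcripts of 10 genes for extracellular matrix proteases and their inhibitors were followed in MH-S cells, an SV40-transformed line of mouse alveolar macrophages. The genes were the matrix metalloproteinases Mmp8, Mmp9, Mmp12, Mmp13, Mmp14 and Mmp19, the membrane-bound protease Adam8, and the tissue inhibitors of metalloproteinases Timp1, Timp2 and Timp3. They were chosen by gene family with the levels of these libraries already known, and are 10 of the 78317 gene identifiers in the count table. RNA-seq was available for 5 groups of 3 libraries, all from cells in RPMI with serum and all given 24 h of culture with or without an agent. M0 cells were untreated controls. For M1 polarization the medium held IFN-γ at 20 ng/mL and LPS at 1 µg/mL, and for M2 polarization IL-4 at 20 ng/mL. CaP and SiO2 cells received 0.1 mg/mL of rod-shaped microparticles built from calcium phosphate or silica nanoparticles. The dose was equal by mass. According to the paper, the rod types differ in density, so equal mg/mL hold different numbers of rods. Both rod types were pre-crosslinked with alginate and coated with 3 double layers of protamine and carboxymethyl chitosan, and 3 separately made batches of rods were used. All libraries come from 1 transformed cell line. The paper states that each rod batch was given to its own well, with cells of 1 passage. Nothing in the labels says that the 3 libraries of an untreated or cytokine-treated group came from separate cultures. The p-values thus measure the spread between libraries of a group, which may be technical.

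Matrix metalloproteinases are zinc-dependent enzymes that are made as inactive precursors and are switched on when the propeptide is cut away. MMP-12, also called macrophage elastase, degrades elastin, while MMP-9, or gelatinase B, acts on denatured collagen and basement membrane. MMP-8 and MMP-13 cleave fibrillar collagen, MMP-14 sits in the plasma membrane and activates the MMP-2 precursor, and ADAM8 sheds proteins from the cell surface. The TIMP proteins bind the active site and block it. In the lung these enzymes are known from the turnover of alveolar walls, and alveolar macrophages are a main source of MMP-12.

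The files held 8459643 to 68750050 counted reads per library. M0 replicate 3, M2 replicate 2 and SiO2 replicate 2 were the smallest libraries of their groups and stood apart on the second principal component, at -42.7, -43.9 and -21.7, while the others lay between -4.36 and 21.3. Fits without these 3 libraries are given beside the calls of the 10 genes, and as counts for the related genes. Of 11 macrophage markers, 9 to 11 were above 3 reads in a group, with summed levels of 1463 to 3664 CPM, the reads of a gene scaled to the TMM-adjusted size of its library. Marco, a receptor of alveolar macrophages, was at 0 in the SiO2 libraries and had few reads elsewhere. It had 0, 5 and 1 reads in M0, 1, 0 and 0 in M2, 3, 2 and 7 in CaP, and 17, 33 and 29 in M1. Fibroblast and epithelial markers, 6 genes each, summed to at most 0.232 and 0.116 CPM in any library. The 9 neutrophil markers, relevant because neutrophils store MMP-8 and MMP-9, summed to 0.632 to 3.83 CPM, with S100a9 at 0 in every library. The 6 osteoclast markers, Ctsk among them, summed to 16.3 to 84.9 CPM. The CaP libraries, at 50.45 to 84.9, overlapped with those of SiO2 (52.07 to 59.76) and M2 (25.93 to 58.75). All CaP and SiO2 libraries lay above those of M0 (32.71 to 48.26) and M1 (16.25 to 23.71). Most of the CaP sum was Dcstamp and Ocstamp, with means of 32.0 and 36.6 CPM, while Ctsk had 0.888. Acp5 was highest in M1, at 2.68 CPM against 0.303 in CaP. Since these are bulk libraries, more cells with a transcript and more transcript per cell cannot be told apart.

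Adam8 had the highest level of the 10 genes per kb of transcript in each group, from 16.7 ± 4.97 CPM per kb in M0 to 34.0 ± 9.84 in M1 (SD, n = 3). In M0 cells Mmp9 followed at 2.17 ± 0.232, Mmp19 at 1.01 ± 0.393 and Mmp12 at 0.382 ± 0.0884 CPM per kb. The other 6 genes lay at or below 0.167 CPM per kb there. Per kb, the M0 order thus ran from the sheddase Adam8 through gelatinase B to macrophage elastase, with the inhibitors near the detection limit. The filter on low counts kept 6 of the 10 genes for testing across all 15 libraries (Mmp9, Mmp12, Mmp14, Mmp19, Timp2 and Adam8) and 5 across the 9 M0, CaP and SiO2 libraries (the same genes without Mmp14). A gene was called at an adjusted p under 0.05 with an absolute log2 fold change over 0.5, by edgeR's quasi-likelihood test with Benjamini-Hochberg adjustment over all genes tested. Because the genes were picked with these levels in view, the adjusted p-values place each gene among all genes tested and are no independent evidence.

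**Figure D1:**
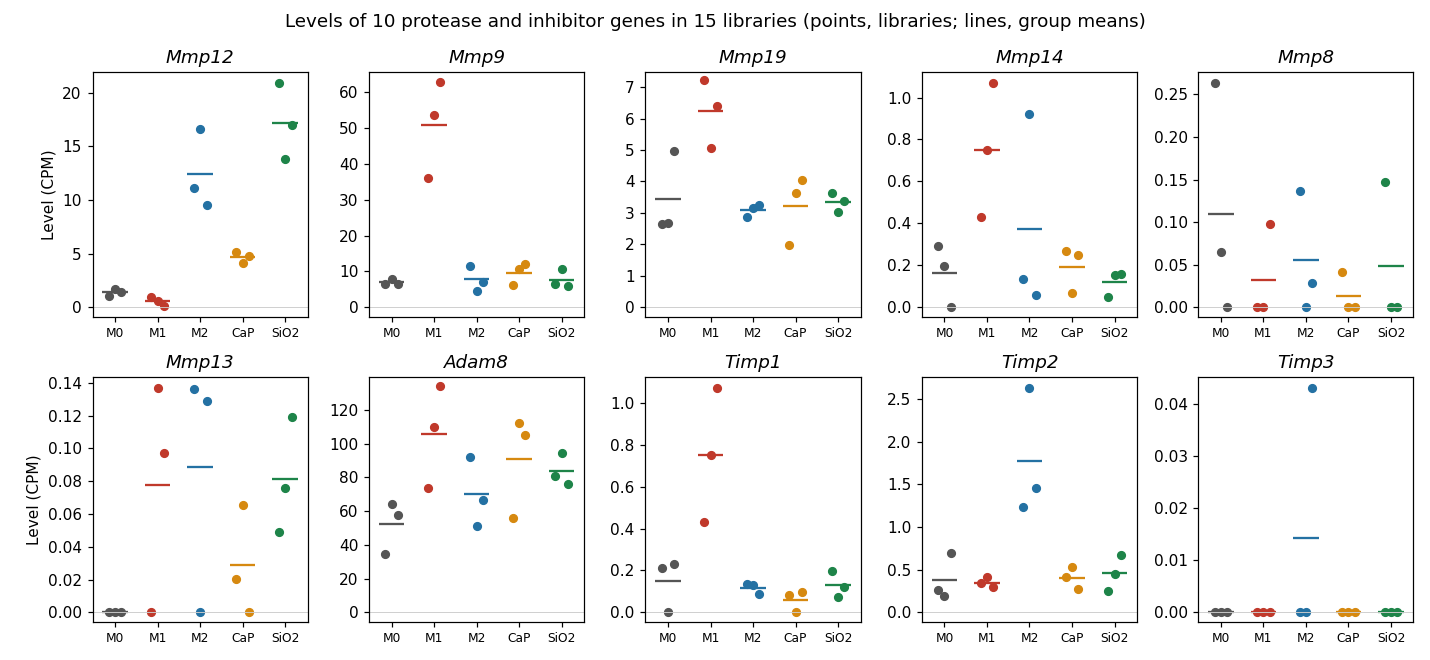
Level in CPM (vertical axes, linear, each with its own range) of the 10 genes in each of the 15 libraries, by group; points are libraries and horizontal lines are means of 3 libraries. Mmp12 is highest in SiO2 and M2, Mmp9 is highest in M1, and Mmp8, Mmp13 and Timp3 stay below 0.3 CPM in every library.

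Mmp12 varied most between the groups, with a range of 5.12 in the group means of log2 CPM against 2.84 for Mmp9 and 1.03 for Adam8. It lies on chromosome 9 in a run of 10 metalloproteinase genes in the order Mmp13, Mmp12, Mmp1b, Mmp3, Mmp1a, Mmp10, Mmp8, Mmp27, Mmp20 and Mmp7. Its RefSeq promoter windows (GRCm38.p6, 250 bases before to 50 after an annotated start) are shown with those of Mmp13, next to it, and Mmp8, further along the run. Mmp13 and Mmp8 were near the detection limit in these cells. Also shown is the window of Timp2, the other gene here called higher in M2 than in M0. Capitals mark motif matches on either strand. The AP-1 motif was searched as TGANTCA. The interferon-gamma activated site (GAS) was searched as TTCNNNGAA and a STAT6-type site as TTCNNNNGAA, and none of the motif letters overlapped in the windows shown. The TATA box was searched as TATAAA. The 2 Mmp12 windows belong to 2 annotated starts, and 8 of the 10 genes had a window.
Mmp12, start 1, chr9:7344147-7344446, plus strand: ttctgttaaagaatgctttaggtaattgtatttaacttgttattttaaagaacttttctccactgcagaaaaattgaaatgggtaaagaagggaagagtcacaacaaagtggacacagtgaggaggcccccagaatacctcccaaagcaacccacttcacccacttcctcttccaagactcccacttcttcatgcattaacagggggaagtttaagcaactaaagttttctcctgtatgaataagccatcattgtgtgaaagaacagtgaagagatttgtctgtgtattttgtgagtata
Mmp12, start 2, chr9:7347124-7347423, plus strand: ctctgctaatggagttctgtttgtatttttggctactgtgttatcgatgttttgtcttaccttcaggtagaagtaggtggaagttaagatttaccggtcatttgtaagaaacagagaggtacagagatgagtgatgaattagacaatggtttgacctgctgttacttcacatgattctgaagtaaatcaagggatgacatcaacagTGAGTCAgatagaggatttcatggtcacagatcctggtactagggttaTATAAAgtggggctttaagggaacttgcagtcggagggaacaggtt
Mmp13, chr9:7272264-7272563, plus strand: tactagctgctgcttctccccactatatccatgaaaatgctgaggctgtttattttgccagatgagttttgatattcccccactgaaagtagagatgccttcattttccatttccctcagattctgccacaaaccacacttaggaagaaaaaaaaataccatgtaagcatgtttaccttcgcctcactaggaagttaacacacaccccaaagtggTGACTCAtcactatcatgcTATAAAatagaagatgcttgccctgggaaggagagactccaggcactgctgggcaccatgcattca
Mmp8, chr9:7558179-7558478, plus strand: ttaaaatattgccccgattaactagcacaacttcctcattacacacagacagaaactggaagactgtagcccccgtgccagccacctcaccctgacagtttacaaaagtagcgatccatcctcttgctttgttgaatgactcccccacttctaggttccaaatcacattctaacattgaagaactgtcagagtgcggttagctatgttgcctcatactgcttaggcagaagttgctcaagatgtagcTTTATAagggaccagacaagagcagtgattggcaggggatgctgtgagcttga
Timp2, chr11:118355362-118355661, minus strand: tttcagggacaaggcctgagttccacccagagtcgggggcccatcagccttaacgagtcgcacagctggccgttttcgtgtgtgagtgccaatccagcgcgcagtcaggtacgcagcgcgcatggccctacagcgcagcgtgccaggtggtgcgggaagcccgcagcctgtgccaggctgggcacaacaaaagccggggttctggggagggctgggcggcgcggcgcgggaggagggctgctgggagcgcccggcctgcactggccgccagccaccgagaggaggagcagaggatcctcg

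The second Mmp12 window held an AP-1 match at -44 and a TATA match at 5 relative to the start, and the Mmp13 window held the same 2 motifs at -35 and -16. The Mmp8 window held a TATA match at -3. No match of the 4 motifs was found in the first Mmp12 window or in those of Timp1, Timp2, Timp3, Mmp14 and Adam8. Of 32851 RefSeq windows of the same length, 7.81% held the AP-1 letters, 13.6% the TATA letters, 8.30% the GAS letters and 6.95% the STAT6-type letters. The Mmp13 window and the second Mmp12 window thus share both motifs. Which Mmp12 start is used in these cells, and the part of the motifs in the levels, were not tested.

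Mmp12 was measured at 1.05, 1.69 and 1.39 CPM in M0, and at 20.9, 13.8 and 16.96 CPM in the SiO2 libraries. Every SiO2 library was above every M0 library. The log2 fold change was 3.71 ± 0.273 (SE; edgeR adjusted p = 0.00231), a 13.04-fold difference. It was the 1 member called among the 5 tested, while 0.0602% of the 16621 genes tested were called in SiO2 against M0. Without M0 replicate 3 and SiO2 replicate 2 the value was 3.86 (adjusted p = 0.0155), and without M0 replicate 1 it was 3.45 and missed the threshold (adjusted p = 0.0504).

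CaP libraries carried 5.15, 4.08 and 4.76 CPM of Mmp12, again above all M0 libraries but below all SiO2 libraries. The log2 fold change against M0 was 1.83 ± 0.276 (edgeR adjusted p = 0.0307), a 3.56-fold difference, and Mmp12 was the 1 member called where 0.409% of all genes tested were. Without the libraries that stand apart the value was also 1.83 but the edgeR adjusted p was 0.0932. The edgeR call was lost as well without M0 replicate 1, M0 replicate 3, CaP replicate 2 or CaP replicate 3 (adjusted p up to 0.233). With no library left out, DESeq2 gave a log2 fold change of 1.82 for CaP against M0 (adjusted p = 5.67e-06). In the direct comparison of the rod types Mmp12 was lower in CaP by a log2 fold change of -1.87 ± 0.227 (edgeR adjusted p = 0.0478). It was the 1 member called, among 0.0241% of all genes tested. The call was lost when any 1 CaP or SiO2 library was left out (adjusted p 0.0913 to 0.393) and without the libraries that stand apart (0.126), whereas the fold change stayed between -2.01 and -1.71 over the libraries left out in turn. DESeq2 gave an adjusted p of 3.11e-08. The rods were dosed at equal mass and not at equal number, and the part of rod number in this difference was not tested.

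IL-4-treated M2 cells held 11.1, 16.6 and 9.56 CPM of Mmp12, a mean of 12.4 ± 3.69 (SD, n = 3), overlapping the SiO2 libraries at 17.2 ± 3.57. The log2 fold change against M0 was 3.19 ± 0.346 (edgeR adjusted p = 1.02e-04), a 9.15-fold difference, and it was 2.98 without the libraries that stand apart (adjusted p = 9.37e-04). M1 libraries held 0.946, 0.547 and 0.0972 CPM, or 11, 8 and 1 reads, each below the lowest M0 library. The log2 fold change of M1 against M0 was -1.27 ± 0.507 and did not pass in edgeR (adjusted p = 0.118), whereas DESeq2 gave 0.0398. Without the libraries that stand apart it was -1.25 (edgeR adjusted p = 0.0916). M1 against M2 gave -4.46 ± 0.414 (edgeR adjusted p = 4.49e-06), and -4.23 without those libraries (1.66e-05). Thus the order of Mmp12 levels ran from SiO2 and M2, which overlapped, through CaP and M0 to M1, each of these apart from its neighbour. Mmp1b overlaps the exons of Mmp12 on the other strand, and the library kit does not mark strand. Mmp1b had 1 read in all 15 libraries.

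Mmp9 showed another order. M1 libraries held 36.1, 53.7 and 62.8 CPM, and M0 libraries 6.59, 7.74 and 6.37 CPM. All M1 libraries lay above all others. The log2 fold change against M0 was 2.88 ± 0.355 (edgeR adjusted p = 9.62e-05), a 7.35-fold difference, and it was 2.82 without the libraries that stand apart (adjusted p = 2.60e-04). M2 libraries held 11.6, 4.61 and 7.13 CPM, CaP libraries 6.11, 10.5 and 12.0, and SiO2 libraries 6.51, 10.6 and 6.02. These groups overlapped with M0 and with each other, and the log2 fold changes against M0 were 0.20 ± 0.354 in M2, 0.46 ± 0.305 in CaP and 0.14 ± 0.312 in SiO2. None was called (edgeR adjusted p of 0.842, 0.468 and 0.949). M1 against M2 gave 2.68 ± 0.351 (edgeR adjusted p = 1.09e-04), and 2.46 without those libraries (3.52e-04). Both M1 calls of Mmp9 were kept when each library of the groups compared was left out in turn. The 9 neutrophil markers summed to 2.58 to 3.83 CPM in M1 against 0.632 to 1.62 in M0, with Ly6g, S100a9, Ngp and Ltf at 0 in all M1 libraries. S100a8 had 7, 19 and 5 reads in M1 against 1, 1 and 0 in M0 (DESeq2 adjusted p = 0.00213; not tested in edgeR). Camp, Mpo and Csf3r also had higher means in M1, at 0.260, 0.309 and 1.55 CPM against 0.0474, 0.143 and 0.930, of which only Csf3r was tested in edgeR and not called. The part of these markers in the Mmp9 values was not tested.

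**Figure D2:**
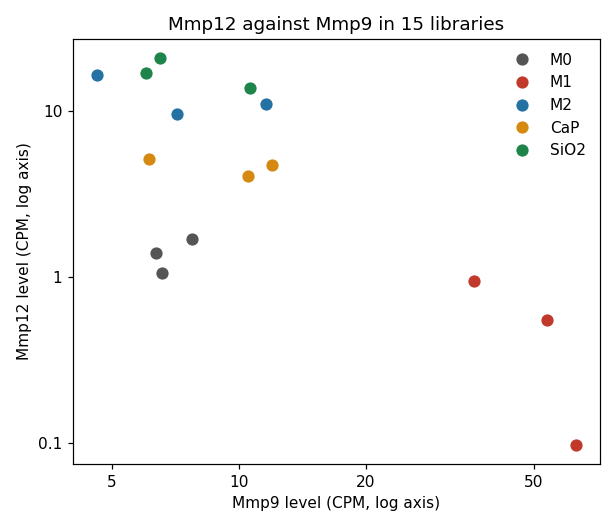
Mmp12 level against Mmp9 level (both in CPM on log axes) in the 15 libraries, coloured by group. M1 libraries lie at the right with Mmp9 from 36.1 to 62.8 CPM and Mmp12 below 1 CPM; the M2 and SiO2 libraries lie at the top left, with Mmp12 from 9.56 to 20.9 CPM and Mmp9 below 12 CPM.

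In M1 against M0, Mmp9 and Adam8 were the 2 members called of 6 tested, beside 14.1% of the 16654 genes tested. Adam8 was measured at 34.6, 64.1 and 57.7 CPM in M0 and at 73.4, 109.7 and 134 CPM in M1. The M1 libraries were all above the M0 libraries, with a log2 fold change of 1.03 ± 0.318 (edgeR adjusted p = 0.0457). The call was lost in 5 of the 6 fits with 1 of these libraries left out (adjusted p 0.0296 to 0.183 over the 6), and without the libraries that stand apart the value was 1.09 (adjusted p = 0.0479). M2 libraries held 92.3, 51.3 and 66.3 CPM, CaP libraries 56.0, 112 and 105, and SiO2 libraries 80.7, 94.6 and 76.0. The SiO2 libraries were above all M0 libraries, and the M2 and CaP libraries overlapped with those of M0. The log2 fold changes against M0 of 0.43 ± 0.316 in M2, 0.81 ± 0.296 in CaP and 0.69 ± 0.296 in SiO2 were not called (edgeR adjusted p of 0.541, 0.207 and 0.527). Gm16201 overlaps Adam8 exons on the other strand, and its group means ran from 11.7 CPM in M0 to 22.6 in M2. Without strand, reads from the 2 genes cannot be told apart where they overlap, and the part of Gm16201 in the Adam8 values was not tested.

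Mmp19, a metalloproteinase also known as RASI-1, was at 2.66, 2.67 and 4.98 CPM in M0 and at 7.22, 5.06 and 6.41 CPM in M1. The M1 libraries were above all others, the nearest being M0 replicate 3, one of those that stand apart. M1 against M0 gave a log2 fold change of 0.94 ± 0.308 that missed the threshold (edgeR adjusted p = 0.0583), and 1.21 without the libraries that stand apart (adjusted p = 0.0221). M2 libraries held 2.87, 3.16 and 3.23 CPM, and M1 against M2 was called at 1.00 ± 0.305 (edgeR adjusted p = 0.0393). That call was lost in 5 of 6 fits with a library left out (adjusted p 0.0498 to 0.135) and kept without all 3 libraries that stand apart (adjusted p = 0.0305). CaP libraries, at 1.97, 3.62 and 4.04 CPM, and SiO2 libraries, at 3.62, 3.03 and 3.37 CPM, overlapped with M0, with log2 fold changes of -0.04 ± 0.344 and 0.05 ± 0.351 (edgeR adjusted p of 0.964 and 0.986). Tmem198b and Gm47093 overlap Mmp19 on the other strand. Tmem198b had group means of 1.44 CPM in M0 to 2.58 in M1, and its part in the Mmp19 values was not tested.

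Mmp14 was low, at 0 to 1.07 CPM and at most 13 reads in a library. In M1 it was at 0.430, 0.752 and 1.07 CPM, above all M0 libraries (0.290, 0.195 and 0 CPM). M2 replicate 2, one of the libraries that stand apart, held 0.921 CPM (7 reads) against 0.137 and 0.0572 in the other M2 libraries. The log2 fold change was 1.73 ± 0.850 for M1 against M0 and 2.19 ± 0.874 for M1 against M2, neither called (edgeR adjusted p of 0.196 and 0.101). Without M2 replicate 2 the latter was 3.135 and called (adjusted p = 0.00263).

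The collagenases Mmp8 and Mmp13 had 21 reads each over all 15 libraries, with 8 and 6 libraries at 0, so that differences between groups were not detectable at this depth. Mmp8 reached 10 reads in M0 replicate 1 (0.263 CPM) and Mmp13 reached 9 reads in M2 replicate 3 (0.129 CPM). M0 was at 0 for Mmp13 in all 3 libraries, and the other groups had at most 0.137 CPM. Neither gene passed the filter on low counts. A count of 3 reads, taken as the floor, corresponds to 0.0429 to 0.395 CPM depending on the library.

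Among the inhibitors, Timp2 was higher in M2 than in any other group. M2 libraries held 1.23, 2.63 and 1.46 CPM (18, 20 and 102 reads) and M0 libraries 0.263, 0.195 and 0.695 CPM (10, 3 and 6 reads). All M2 libraries were above all M0 libraries, with a log2 fold change of 2.34 ± 0.442 (edgeR adjusted p = 0.00754). The call was lost without M0 replicate 1 (adjusted p = 0.0994) and kept without the libraries that stand apart (2.49, adjusted p = 0.0109). In M2 against M0, Timp2 and Mmp12 were the 2 members called, where 4.13% of all genes tested were. M1 libraries held 0.344, 0.410 and 0.292 CPM, and M1 against M2 was -2.17 ± 0.478 (edgeR adjusted p = 0.00636), or -1.96 without the libraries that stand apart (0.00640). CaP libraries held 0.410, 0.526 and 0.274 CPM and SiO2 libraries 0.245, 0.454 and 0.674, overlapping with M0. In M1 against M2 the members called were Mmp9 and Mmp19, higher in M1, and Mmp12 and Timp2, lower, against 16.1% of all genes tested.

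Timp1 was at 0.430, 0.752 and 1.07 CPM in M1 (5, 11 and 11 reads) and between 0 and 0.232 CPM in the libraries of the other groups. The M1 libraries were above all others, but Timp1 did not pass the filter on low counts and was not tested in edgeR. DESeq2, which has its own filter, gave adjusted p-values of 0.0170 against M2 and 0.0546 against M0. Its read counts in M1 equal those of Mmp14, while the counts of the 2 genes differ in the other groups. Timp1 lies inside the gene Syn1, without overlapping exons. Syn1 had group means of 0.822 CPM in M0 to 1.94 in M1, and its part in the Timp1 values was not tested. Timp3 had 3 reads, all in M2 replicate 3, and the other 14 libraries were at 0. Syn3, which overlaps it on the other strand, also had 3 reads in that library. Timp1, Timp2 and Timp3 together had 3 to 111 reads per library, against 110 to 1407 for the 6 metalloproteinases.

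**Figure D3:**
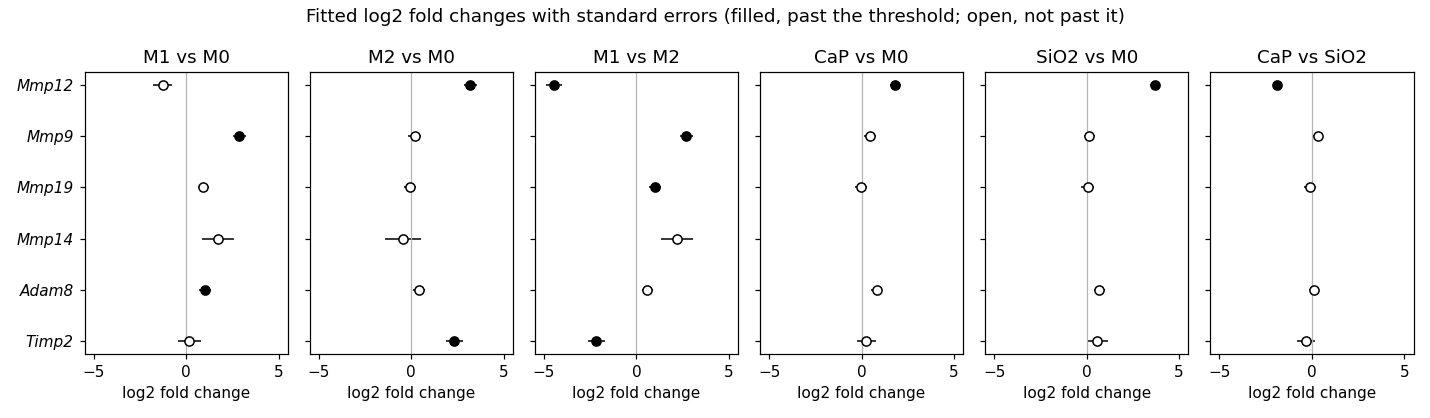
Fitted log2 fold changes (horizontal axes) with standard errors of the tested genes in the 6 comparisons; filled points passed the threshold and open points did not. Mmp12 is filled in 5 of the 6 panels and Mmp9 in the 2 panels that involve M1.

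Summed per kb over the 6 metalloproteinases, levels were 3.66 ± 0.275 CPM per kb in M0, 18.3 ± 4.13 in M1, 6.97 ± 0.937 in M2, 5.31 ± 1.18 in CaP and 8.27 ± 0.672 in SiO2 (SD, n = 3). Mmp12 made up 57.5% ± 9.23 of it in SiO2 and 49.3% ± 12.4 in M2, but 25.5% ± 8.53 in CaP, 10.4% ± 1.87 in M0 and 0.938% ± 0.890 in M1. The rest was mostly Mmp9 and Mmp19. The 3 inhibitors summed to 0.271 ± 0.201 CPM per kb in M0, 0.944 ± 0.355 in M1, 0.615 ± 0.211 in M2, 0.177 ± 0.0319 in CaP and 0.271 ± 0.0561 in SiO2. The inhibitor sum rests on few reads, and these shares are given as a description without a test.

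**Figure D4:**
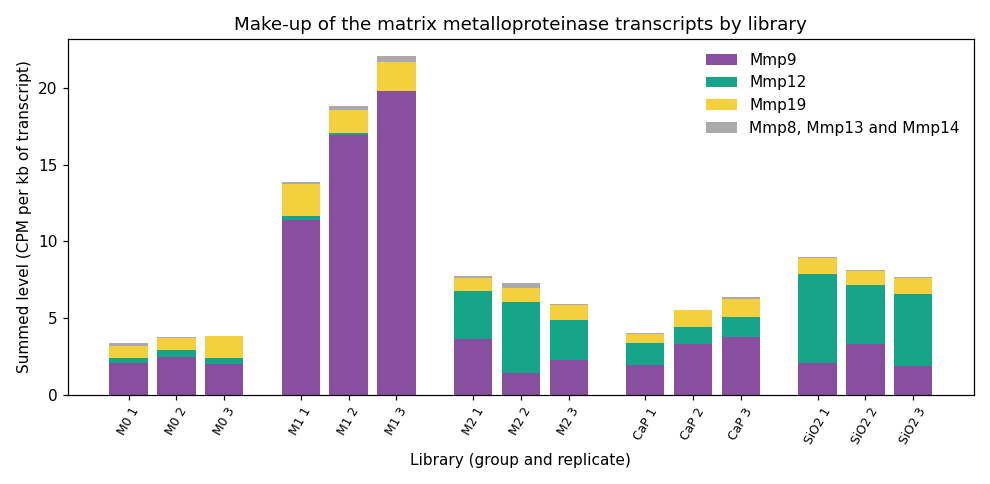
Summed level of the 6 matrix metalloproteinase genes (CPM per kb of transcript) in each library, stacked by gene. The bars of the SiO2 and M2 libraries hold the most Mmp12, at group means of 57.5% and 49.3% of the sum, while those of M1 are mostly Mmp9.

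A wider set of 86 related genes in 7 lists was read from the same fits. In M1 against M0, 12 of 38 tested were called, in M2 against M0 7, and in M1 against M2 20, beside 14.1%, 4.13% and 16.1% of all genes tested. Without the libraries that stand apart 11, 5 and 18 of these calls were kept. Of 17 other metalloproteinases, Mmp3 had no read and 3 (Mmp15, Mmp23 and Mmp25) exceeded 3 reads in some library, the highest group mean being 0.320 CPM; none passed the filter on low counts. Of 15 other ADAM genes and their regulators 7 were tested, and 2 rose in M1 against M0 (background 14.1% of all genes). Rhbdf2, which helps bring ADAM17 to the surface, rose by 0.98 ± 0.285 (edgeR adjusted p = 0.0349, or 0.0637 without the libraries that stand apart), and Adamts4, an aggrecanase below 5 CPM that was named after its values were seen, by 3.20 ± 0.475 (adjusted p = 3.84e-04). The clearance receptor Lrp1, the 1 tested of 6 other inhibitor and clearance genes, was not called in any comparison.

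Of the 10 activator and plasmin genes 5 were tested. In M1 against M0, Furin, which activates MMP-14 precursors, rose by 1.38 ± 0.235 (edgeR adjusted p = 0.00137), while the urokinase gene Plau fell, at -2.31 ± 0.690 (adjusted p = 0.0392). In M2 against M0 the urokinase receptor Plaur fell, at -0.75 ± 0.140 (edgeR adjusted p = 0.00736, or 0.0697 without the libraries that stand apart). Of 13 elastase, cathepsin and cystatin genes 10 were tested there, and 3 were called, beside 4.13% of all genes. Cst7, cystatin F, rose by 3.08 ± 0.240 and Ctsh by 1.25 ± 0.161, and Ctsl fell, at -0.76 ± 0.188 (edgeR adjusted p of 3.72e-06, 4.45e-04 and 0.0366). The Ctsl call was lost without the libraries that stand apart (adjusted p = 0.110). In M1 against M0, Ctsd rose by 1.37 ± 0.352 and the inhibitor Cst3 fell, at -1.11 ± 0.207 (edgeR adjusted p of 0.0188 and 0.00258).

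In CaP against M0, 3 of 37 related genes tested were called by edgeR, all higher, beside 0.409% of all genes. DESeq2 called 9, beside 608 of the 15701 genes it tested. Of these 9, 6 were higher (Plau, Ctsd, Cst7, Spp1, Junb and Etv4) and 3, Adam10, Ctsh and Cst3, lower (log2 fold changes of -0.91, -0.71 and -0.57). Plau, which fell in M1, had a log2 fold change of 1.865 in CaP by DESeq2 (adjusted p = 0.0106). It was not called by edgeR (adjusted p = 0.130), and its CaP and M0 libraries overlapped. Cst7 rose by 1.76 ± 0.243 (edgeR adjusted p = 0.0174), Spp1, which encodes osteopontin, by 0.94 ± 0.126 (adjusted p = 0.0174), and the collagen-degrading Ctsk, a gene below 5 CPM chosen after its values were seen, by 3.12 ± 0.469 (adjusted p = 0.0165). Ctsk was at 3, 1 and 2 reads in M0 and at 51, 14 and 28 in CaP. Without the libraries that stand apart all 3 edgeR calls were lost (adjusted p of 0.0635 for Cst7, 0.124 for Spp1 and 0.0628 for Ctsk), with log2 fold changes of 1.88, 1.00 and 3.49. In SiO2 against M0 and in CaP against SiO2, 0 of 37 related genes were called by edgeR. At an unadjusted edgeR p under 0.05 there were 9 and 4, beside 9.27% and 1.87% of all genes tested. DESeq2 called 1 in each, beside 123 and 15 of the 17385 genes it tested. Of the matrix genes, Fn1 rose by 2.71 ± 0.347 (edgeR adjusted p = 1.31e-04) and Thbs1, which encodes thrombospondin, by 4.06 ± 0.405 (adjusted p = 1.21e-06) in M1 against M0, and Spp1 fell in M2, at -1.81 ± 0.234 (adjusted p = 4.70e-04). Of the AP-1 and ETS factors, 3 of 10 tested rose in M1 against M0, beside 14.1% of all genes. Fos rose by 1.28 ± 0.221 (edgeR adjusted p = 0.00154) and Etv4 by 2.51 ± 0.350 (adjusted p = 2.95e-04). Batf had no read in M0 and a mean of 13.2 CPM in M1, at least 63.8-fold higher when M0 is set to 3 counts per library. In M2, Batf3 rose by 1.80 ± 0.215 and Fos fell, at -2.05 ± 0.236 (edgeR adjusted p of 2.31e-04 and 1.76e-04).

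The genes with the pattern most like a member were found by the root-mean-square difference of centred log2 CPM over the 15 libraries, among 11311 genes at 5 CPM or more in a group. For Mmp12 they were Wwc1 (1.12), Cd200r4 (1.22) and Plekhf1 (1.31), where the median gene was at 2.02. Cd200r4, a receptor of the CD200 family, had 42.9 CPM in M2 and 11.6 in SiO2. Wwc1 had 7.683 and 5.365 CPM there, and Plekhf1 21.84 and 5.207. Each was thus highest in M2, so their order differed from that of Mmp12, which was highest in SiO2. For Mmp9 they were Aqp9, a glycerol channel (0.268), Ehd1 (0.277) and Cth (0.307), with a median of 1.19. Those of Adam8 were Nipal3 (0.129), Edem2 (0.141) and Pea15a (0.144), with a median of 0.617. The likeness of Mmp12 to its nearest gene was looser than that of Mmp9 or Adam8.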

How the data were processed

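RNA was read from 15 libraries of MH-S cells made with Smart-seq2, a protocol with oligo-dT priming that does not mark strand. The authors aligned reads with the nf-core/rnaseq pipeline (STAR and Salmon, Ensembl annotation; the submitters' notes name GRCm39) and deposited whole-number counts per Ensembl gene, with no normalization. Symbols came from GENCODE M21 for 51487 of 78317 identifiers, and transcript lengths are those of the longest protein-coding transcript.

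Counts were filtered by group (filterByExpr), scaled by TMM and tested with edgeR 4.0.16 (quasi-likelihood, R 4.3.3). All 15 libraries were fitted for comparisons of M0, M1 and M2 (16654 genes), and the 9 M0, CaP and SiO2 libraries for the rods (16621 genes). CPM use TMM-scaled sizes, and a prior count of 2 was used for log2 CPM. DESeq2 1.42.0, other filters and scalings, thinned counts, a replicate block and libraries left out were tried as alternatives. No permutation p is given, as groups of 3 allow none below 0.1 (exact, two-sided). The fits of related genes without the libraries that stand apart were added after seeing the data. The scripts were tested on simulated data. Replicates of a group differed beyond sampling noise (chi-square per gene of 6.91 to 134.8), so each counted once. Depth ran from 8459643 to 68750050 reads, so that 1 read is 0.0143 to 0.132 CPM.

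The members, related lists and marker lists were chosen with earlier results of these data known. All members are named. Of a related list, up to 3 called genes with the largest change and at least 5 CPM in a group are named per comparison, and for the 3 most variable members the 3 nearest genes. One result that this rule names is not reported here. Promoters are from RefSeq (GRCm38.p6); Mmp9 and Mmp19 were not analysed for promoters.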

Additional observations from a re-analysis of the deposited data

How the results depend on the processing

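For 33 fold changes, 468 alternative values were computed, of which 402 kept direction and side of the threshold, 35 lost a call, 6 gained one and 25 changed sign. The members called in M1 against M0 (2) were 4 without the libraries that stand apart, 1 with only the 6 libraries compared and 1 to 3 with a library left out. In M2 against M0 (2) they were 0 with at least 10 counts in every library, which removes Mmp12 and Timp2 from the test, 1 with thinned counts, 1 with only the 6 libraries and 1 to 2 with a library left out. In M1 against M2 (4) they were 2 with at least 10 counts and 3 to 5 with a library left out. In CaP against M0 (1) they were 0 without the libraries that stand apart and 0 to 1 with a library left out, and in SiO2 against M0 (1) 0 to 1. In CaP against SiO2 (1) they were 0 with DESeq2 size factors, at least 10 counts, thinned counts, all 15 libraries in the model, the libraries that stand apart removed, the legacy quasi-likelihood (an alternative chosen after seeing the data) or any CaP or SiO2 library left out. The cause of these losses was not tested beyond the removal of genes or libraries.

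Same-numbered libraries did not deviate together (r of -0.70 to 0.60 over 30 pairs, of which 14 were over 0.1; 22 of 60 comparisons matched best with the own number), so the numbers do not pair them. A replicate block left 0 members called in CaP against M0 and 0 in CaP against SiO2 (Mmp12, adjusted p of 0.0872 and 0.203), and changed no other count.

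Values that changed sign were not called in either setting. For Mmp14 in M2 against M0 they were 0.72 with DESeq2 and 0.15 with the legacy method. For Mmp19 they were 0.21 in M2 and 0.24 in CaP against M0 without the libraries that stand apart, 0.001 in CaP without a filter, -0.18 in SiO2 with thinned counts, -0.007 in SiO2 with the legacy method and 0.093 in CaP against SiO2 with thinned counts. For Mmp9 in SiO2 the value was -0.17 without the libraries that stand apart. With a library left out, ranges that crossed zero were -0.13 to 0.54 (Timp2, M1 against M0), -1.50 to 0.91 (Mmp14, M2 against M0), -0.26 to 0.22 (Mmp19, M2 against M0), -0.17 to 0.40 (Mmp9, M2 against M0), -0.30 to 0.24 (Mmp19, CaP against M0), -0.03 to 0.64 (Timp2, CaP against M0), -0.13 to 0.34 (Mmp19, SiO2 against M0), -0.14 to 0.28 (Mmp9, SiO2 against M0), -0.075 to 0.36 (Adam8, CaP against SiO2) and -0.36 to 0.19 (Mmp19, CaP against SiO2). Depth limits Mmp8, Mmp13, Timp1 and Timp3, which had too few reads to test.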
